A study of Mus musculus with 8 samples.

Results

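Gene expression was compared between mouse pluripotent lines of unlike origin. NSC-CiPSC lines 1, 2 and 3 were made from neural stem cells, and IEC-CiPSC lines 10 and 13 from epithelial cells of the small intestine. CiPSC are chemically induced pluripotent stem cells, made from somatic cells with small-molecule compounds. The comparison covered genes on chromosomes 1 to 19 with an FPKM of 1 or more in any of the 5 lines, leaving out symbols that hold -ps or Gm followed by digits. FPKM, the unit of every level given here, counts sequenced fragments for the length of the transcript and the size of the library. This rule left 12085 of the 39009 entries in each file, and 11634 of them are protein coding in GENCODE M21.

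RNA sequencing gave 8 libraries of total RNA, 1 for each line and 1 each for R1 embryonic stem cells (ESC), cultured neural stem cells (NSC, passage 2) and primary small intestinal epithelial cells (IEC). NSC and IEC were taken from embryos at E13.5. All 5 lines carry a GOFGFP transgene on a cross of C57BL/6J with ICR, and the strain label differs from library to library by a number that counts up by 1. The labels read C57BL/6J-Tg(GOFGFP)12Imeg/RbrcxICR, 13Imeg and 14Imeg for NSC-CiPSC lines 1, 2 and 3, and 16Imeg and 17Imeg for IEC-CiPSC lines 10 and 13. In the same form NSC are labelled 11Imeg and IEC 15Imeg, while ESC are 129X1 x 129S1. The labels give neither the compounds nor whether the lines of one origin came from separate animals, and the p-values rest on the spread among these lines only.

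Pluripotent stem cells keep a self-sustaining network of transcription factors led by Pou5f1, Sox2 and Nanog, and they silence the programmes of the cells they came from. Lines of one species can still differ in imprinting, in the balance of naive and primed genes, in the share of cells in a state resembling the early cleavage embryo, and in what they retain of the donor cell. X-linked dosage is a further known variable, since female mouse pluripotent cells can keep both X chromosomes active.

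All 10 pluripotency markers reached FPKM 1 in each line. Their summed FPKM was 5484, 7011 and 6124 in NSC-CiPSC lines 1, 2 and 3 and 8974 and 8697 in IEC-CiPSC lines 10 and 13, against 5439 in ESC. Dppa5a weighed most in these sums, at 2754, 4321 and 3560 in NSC-CiPSC, 5628 and 5271 in IEC-CiPSC and 1998 in ESC. Pou5f1, Nanog, Sox2, Esrrb, Klf4, Dppa5a and Tdgf1 were lower in every NSC-CiPSC line than in the IEC-CiPSC lines. Utf1 and Lin28a were higher, and Zfp42 overlapped between the groups and was lower in all 5 lines than in ESC. In sum, donor markers lay far below the donor libraries. The 7 neural stem cell markers summed to 23.9, 21.7 and 15.6 in NSC-CiPSC and 12.6 and 13.0 in IEC-CiPSC, against 6415 in NSC. The 7 intestinal markers summed to 2.70, 4.01 and 2.54 in NSC-CiPSC and 2.72 and 1.63 in IEC-CiPSC, against 213 in IEC and 2.25 in ESC. Of these, Fabp1, Fabp2 and Tff3 were listed at 0 in every line. Lgals4 lay between 1.20 and 2.84 in the lines, against 16.8 in IEC and 1.54 in ESC. Vil1 reached 1.01 in NSC-CiPSC line 2, against 3.14 in IEC. No leukocyte marker reached FPKM 1 in a line. The IEC library itself held far more fibroblast (6925) and leukocyte (3380) marker RNA than intestinal marker RNA (213), so a high level in IEC does not place a gene in intestinal epithelium.

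The groups also differed in their sex chromosomes. Ddx3y, a Y-linked helicase, was at 11.3, 12.7 and 7.89 FPKM in NSC-CiPSC and at 0.0422 and 0.168 in IEC-CiPSC, against 14.3 in ESC, 8.76 in NSC and 9.10 in IEC. The median of 556 X-linked genes was 4.98, 5.28 and 5.33 FPKM in NSC-CiPSC and 11.0 and 10.5 in IEC-CiPSC, a median log2 difference of -0.77 where the autosomal genes had a median of 0.06. Xist stayed below FPKM 1 in all 5 lines. Origin and sex-chromosome state coincide across these lines and cannot be told apart in any difference below.

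Lines of one origin were not equally alike. At FPKM 5 or more in either line, 43 of 8300 genes differed at least 2-fold between NSC-CiPSC lines 2 and 3, against 537 of 8421 between lines 1 and 2 and 267 of 8371 between lines 1 and 3. NSC-CiPSC line 1 thus stood apart. IEC-CiPSC lines 10 and 13 differed at least 2-fold in 22 of 8193 genes. They did not look like 1 library deposited under a pair of names, since 18.3% of genes with FPKM 5 or more in both differed beyond the error that the deposited 95% intervals of both lines allow. FPKM sums were 738387, 771389 and 748446 in NSC-CiPSC and 744454 and 744977 in IEC-CiPSC. Mitochondrial genes took 5.61%, 1.94% and 3.85% of the sum in NSC-CiPSC and 6.03% and 6.87% in IEC-CiPSC. In the median gene of each line, the upper bound of the deposited interval lay at least 45.3% above an FPKM from 1 to 2. For an FPKM from 10 to 20 it lay 14.5% to 15.6% above.

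Ranges over the lines did not overlap for 6206 genes, 51.4% of the 12085. NSC-CiPSC was higher in 3665 of them (30.3%) and lower in 2541 (21%). Most such gaps were small, as 86.9% were under 2-fold and the median absolute log2 difference was 0.46. With 3 lines against 2, an exact permutation test of 1 gene cannot go below 0.1. The test therefore came from limma, a linear model that shares the spread over all genes, on log2(FPKM + 1), a scale that understates the change of low genes. A gene was called where the difference was at least 2-fold and the p adjusted by Benjamini-Hochberg was under 0.05.

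By that rule 292 genes rose in NSC-CiPSC (2.42%) and 368 fell (3.05%), 660 in all (5.46%). None of the 660 had overlapping ranges. Differences of 4-fold or more were found in 28 of the genes that rose and 75 of those that fell. The deposited intervals also stood apart for 517 of the 660. These counts rest heavily on there being a pair of IEC-CiPSC lines: without line 10 there were 28 calls, and without line 13 there were 24. Calls numbered 337 without NSC-CiPSC line 3 and 758 without NSC-CiPSC line 1, the line that stood apart. The gene lists described below shared this limit, with 82 listed genes called from all lines, 5 without IEC-CiPSC line 10 and 4 without IEC-CiPSC line 13.

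**Figure D1:**
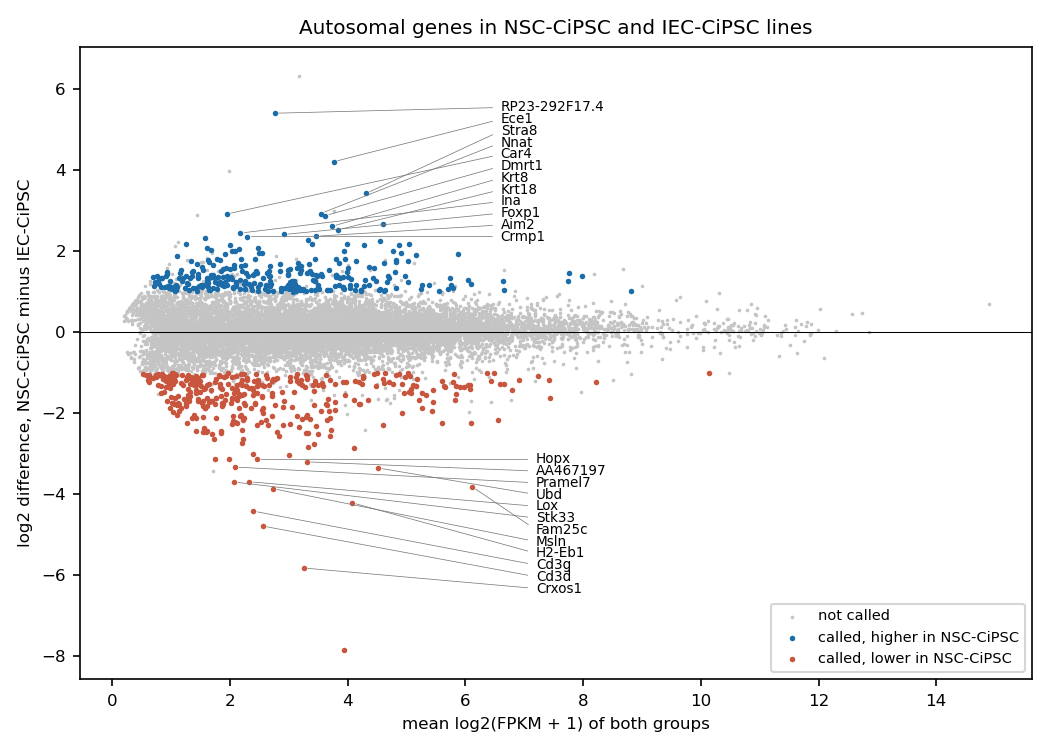
Difference in log2(FPKM + 1) between NSC-CiPSC and IEC-CiPSC lines (vertical axis) against the mean of both groups (horizontal axis) for 12085 autosomal genes, 1 point per gene. The 292 genes called higher and 368 called lower are coloured and the 24 genes with the largest differences by the naming rule are labelled, from RP23-292F17.4 at 5.40 to Crxos1 at -5.83.

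Small RNAs aside, the genes with the largest falls were a homeobox gene, a pair of T cell receptor subunit genes and an MHC class II gene. Their promoters, from RefSeq on GRCm38.p6, are shown because these genes had the largest falls of those with a promoter entry. Each window runs from 250 bases before to 50 bases after a start site, 5′ to 3′ on the gene's strand. The Crxos1 window (RefSeq symbol Crxos, of whose 3 windows the one nearest the 5′ end of the authors' entry was taken) is chr7:15882367-15882666 on the plus strand. The Cd3d window is chr9:44981536-44981835 on the plus strand, the Cd3g window chr9:44980382-44980681 on the minus strand and the H2-Eb1 window chr17:34305617-34305916 on the plus strand. Capitals mark any match on either strand to 5 motifs, the CCAAT box (CCAAT), the core of the class II X box (TAGCAAC), the GC box (GGGCGG), the TATA box (TATAAA) and the octamer bound by POU factors (ATGCAAAT).
Crxos1: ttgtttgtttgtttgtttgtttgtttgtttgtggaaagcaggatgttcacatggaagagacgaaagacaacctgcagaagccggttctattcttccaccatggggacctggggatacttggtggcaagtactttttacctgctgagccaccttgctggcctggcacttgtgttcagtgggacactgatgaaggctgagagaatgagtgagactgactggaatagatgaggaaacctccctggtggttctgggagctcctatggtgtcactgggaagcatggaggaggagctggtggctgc
Cd3d: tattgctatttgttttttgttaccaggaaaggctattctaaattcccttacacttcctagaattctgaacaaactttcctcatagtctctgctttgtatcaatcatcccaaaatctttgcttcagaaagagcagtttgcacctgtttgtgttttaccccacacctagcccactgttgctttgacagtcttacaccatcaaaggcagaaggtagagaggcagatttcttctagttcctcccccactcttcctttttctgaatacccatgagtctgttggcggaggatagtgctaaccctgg
Cd3g: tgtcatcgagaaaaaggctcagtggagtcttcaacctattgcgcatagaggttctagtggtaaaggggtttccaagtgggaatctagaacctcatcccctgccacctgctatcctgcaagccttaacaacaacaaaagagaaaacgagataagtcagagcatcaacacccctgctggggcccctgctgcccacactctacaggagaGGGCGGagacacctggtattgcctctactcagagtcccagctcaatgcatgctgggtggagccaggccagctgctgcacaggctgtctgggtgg
H2-Eb1: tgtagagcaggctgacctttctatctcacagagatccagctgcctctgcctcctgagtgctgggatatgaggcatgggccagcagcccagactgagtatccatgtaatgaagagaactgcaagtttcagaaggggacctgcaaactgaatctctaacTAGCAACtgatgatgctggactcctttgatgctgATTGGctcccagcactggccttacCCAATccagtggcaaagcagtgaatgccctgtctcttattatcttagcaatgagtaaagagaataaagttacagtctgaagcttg

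H2-Eb1 held 1 TAGCAAC at 93 bases and 2 CCAAT at 59 and 35 bases before the start site, and these matches did not overlap each other. Cd3g held 1 GGGCGG at 44 bases before its start site, and none of the 5 motifs was found in the windows of Crxos1 and Cd3d. Among 32851 RefSeq promoter windows of the same length, CCAAT was found in 37.4%, TAGCAAC in 3.66%, GGGCGG in 35.7%, TATAAA in 13.6% and ATGCAAAT in 1.74%. The windows held 2 CpG in Crxos1, 1 in Cd3d, 4 in Cd3g and 0 in H2-Eb1, against a median of 7 and quartiles of 3 and 20 over all windows. All 4 promoters are thus poor or fairly poor in CpG.

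Crxos1, a homeobox gene expressed in early embryos and embryonic stem cells, had the largest fall among genes that the naming rule admits. It was at 0, 0.509 and 0.339 FPKM in NSC-CiPSC lines 1, 2 and 3 and at 64.8 and 77.2 in IEC-CiPSC lines 10 and 13, with 24.3 in ESC and 0 in NSC and IEC. NSC-CiPSC was therefore lower than both the IEC-CiPSC lines and ESC (log2 difference between the groups of lines -5.83 ± 0.220 SE, limma adjusted p = 0.000122). Obox6, another homeobox gene less than 100 kb away and picked after its values were seen, also fell, with 0.171, 0.474 and 0.252 FPKM in NSC-CiPSC against 4.64 and 4.55 in IEC-CiPSC (adjusted p = 0.00293). Of the 4 other tested neighbours, the selenoprotein gene Sepw1 was called higher (log2 difference 1.25, adjusted p = 0.0149) and the rest were not called. The deposited FPKM of selenoprotein genes is inflated, so the Sepw1 call is uncertain. Pramel7, a PRAME family gene of preimplantation embryos, was at 0.293, 0.371 and 0.345 FPKM in NSC-CiPSC and at 9.76 and 15.9 in IEC-CiPSC (log2 difference -3.33, adjusted p = 0.0013). Its neighbour Pramel6, also picked after its values were seen, was at 2.16, 0.889 and 0.214 in NSC-CiPSC and at 8.01 and 7.76 in IEC-CiPSC (adjusted p = 0.0200).

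Cd3d and Cd3g encode chains of the CD3 complex, which carries the signal of the T cell receptor, and lie head to head with start sites 1355 bp apart. Cd3d was at 0, 0.289 and 0.0852 FPKM in NSC-CiPSC and at 30.0 and 29.9 in IEC-CiPSC (log2 difference -4.79 ± 0.176 SE, limma adjusted p = 0.00012). Cd3g was at 0, 0 and 0.473 FPKM in NSC-CiPSC and at 24.8 and 22 in IEC-CiPSC (-4.42 ± 0.230 SE, adjusted p = 0.000416). Both were at or near 0 in ESC, NSC and IEC, so the pair was expressed in the IEC-CiPSC lines alone among the 8 libraries. Cd3e, the third chain gene of the locus, was at 2.13, 2.10 and 2.63 FPKM in NSC-CiPSC and 8.70 and 7.92 in IEC-CiPSC, with 1.11 in ESC (-1.51, adjusted p = 0.00479). The adhesion gene Mpzl2, next along the chromosome, fell too (-1.16, adjusted p = 0.0155), whereas Ube4a, on the other side of Cd3g, was at 14.2, 7.59 and 6.89 in NSC-CiPSC and 7.18 and 7.68 in IEC-CiPSC (adjusted p = 0.589).

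The CD3 genes were the called members of the T cell list, in which 3 of 7 tested genes fell and 0 rose. The called share was 42.9%, against 5.46% of all genes. Lat, an adaptor of T cell receptor signalling, was lower without overlap, at 3.95, 3.75 and 3.87 FPKM in NSC-CiPSC and 5.64 and 5.08 in IEC-CiPSC, but was not called (adjusted p = 0.13). Lck, a T cell kinase, was at 14.9, 9.18 and 12.3 FPKM in NSC-CiPSC and at 6.15 and 10.8 in IEC-CiPSC (adjusted p = 0.292), and Zap70, a kinase that acts with it, was at 1.13, 4.23 and 2.69 in NSC-CiPSC and 3.90 and 3.17 in IEC-CiPSC (adjusted p = 0.527). Ptprc, the pan-leukocyte surface phosphatase, was at or near 0 in every line, at most 0.0486.

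H2-Eb1, the beta chain of an MHC class II antigen-presenting molecule, was at 2.00, 4.09 and 2.94 FPKM in NSC-CiPSC and at 73.2 and 70.7 in IEC-CiPSC, against 3.33 in ESC (log2 difference -4.22 ± 0.232 SE, limma adjusted p = 0.000537). The 3 tested genes within 100 kb of it are class II genes as well and passed the test. H2-Ab1 was at 0.387, 4.07 and 1.71 in NSC-CiPSC and 12.8 and 10.1 in IEC-CiPSC (adjusted p = 0.043), H2-Aa at 0, 0.348 and 0 against 1.65 and 2.57 (adjusted p = 0.0159), and H2-Eb2 at 0.0483, 0 and 0.0474 against 2.67 and 2.94 (adjusted p = 0.00338). The call of H2-Ab1 ended with a pseudocount of 0.1, with no filter, without the trend and without NSC-CiPSC line 3, and that of H2-Aa ended without line 3. Cd74, the invariant chain that accompanies class II molecules, was at 1.76, 2.41 and 2.31 in NSC-CiPSC and 3.42 and 3.71 in IEC-CiPSC and was not called (adjusted p = 0.0997). No class I gene of the list was called. H2-K1 was at 7.94, 15.2 and 15.3 in NSC-CiPSC and 8.69 and 6.93 in IEC-CiPSC (adjusted p = 0.227), and H2-M3 at 2.13, 4.10 and 3.40 against 0.915 and 1.37, without overlap (log2 difference 0.95, adjusted p = 0.0628).

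The MHC and antigen presentation list does not hold H2-Eb1 or H2-Eb2. Of its 20 tested members 3 fell (Ubd, H2-Ab1 and H2-Aa) and 0 rose, a called share of 15% against 5.46% of all genes. The list's median log2 difference was 0.10. The largest fall in it was that of Ubd, a ubiquitin-like protein induced by inflammatory cytokines, at 10.8, 3.57 and 5.80 FPKM in NSC-CiPSC, 71.8 and 72.6 in IEC-CiPSC and 0.136 in ESC (-3.36, adjusted p = 0.00548). Among 17 interferon response genes 3 fell and 0 rose, a called share of 17.6% against the same 5.46%. Xaf1, an interferon-induced cell death gene, was at 0.812, 0.716 and 1.02 in NSC-CiPSC and at 12.1 and 15.8 in IEC-CiPSC, with 17.0 in ESC (-3.01, adjusted p = 0.000855). Oas1a, a sensor of double-stranded RNA, was at 2.34, 4.41 and 3.11 in NSC-CiPSC and 20.7 and 25 in IEC-CiPSC (-2.50, adjusted p = 0.00339).

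Among the remaining genes with the largest falls, Msln, a mesothelial surface protein, was at 0.660, 0.674 and 0.896 FPKM in NSC-CiPSC and 27.2 and 21.9 in IEC-CiPSC (-3.87, adjusted p = 0.000223), with 62.4 in IEC. Lox, the enzyme that cross-links collagen, was at 0.521, 0.252 and 0.419 in NSC-CiPSC and 15.6 and 18.7 in IEC-CiPSC (-3.70, adjusted p = 0.0003), with 322 in IEC. For these genes the higher lines shared the direction of their donor library. Hopx, a homeodomain protein that does not bind DNA, ran the other way, with 0.215, 1.55 and 1.05 in NSC-CiPSC and 15.0 and 15.7 in IEC-CiPSC (-3.14, adjusted p = 0.00449) but 56.0 in NSC and 5.68 in IEC. Fam25c had the highest level of the group, at 12.0, 28.4 and 15.5 in NSC-CiPSC and 257 and 264 in IEC-CiPSC (-3.82, adjusted p = 0.00271). Stk33, a serine/threonine kinase, was at 0, 0.0979 and 0.430 in NSC-CiPSC and 13.4 and 14.9 in IEC-CiPSC (-3.70, adjusted p = 0.000604), and AA467197 at 1.67, 2.03 and 3.27 against 26.8 and 31.5 (-3.20, adjusted p = 0.00162).

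**Figure D2:**
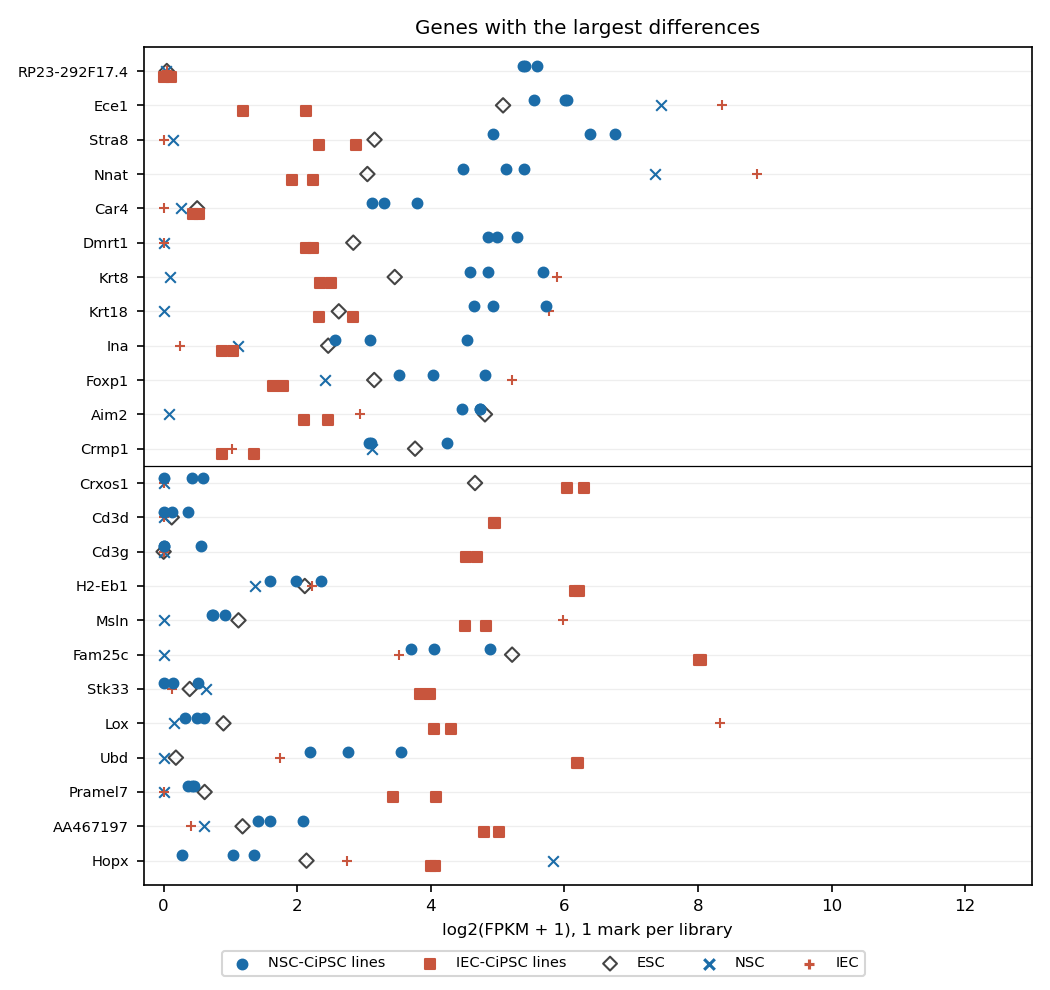
Level of the 24 genes with the largest differences in every library, as log2(FPKM + 1) on the horizontal axis, with 1 mark per library and the 12 genes higher in NSC-CiPSC above the 12 lower ones. The NSC-CiPSC and IEC-CiPSC marks do not overlap in any of the 24 genes, and Cd3d and Cd3g lie near 0 in all libraries but the IEC-CiPSC lines.

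The genes with the largest rises were a pseudogene, a peptidase and genes of germ cell and epithelial identity. RP23-292F17.4, a processed pseudogene named Gm17828 in GENCODE M21, was at 40.7, 47.1 and 41.5 FPKM in NSC-CiPSC and at 0 and 0.0796 in IEC-CiPSC (log2 difference 5.40 ± 0.138 SE, limma adjusted p = 2.58e-05). It lay below 0.05 in ESC, NSC and IEC, so among the 8 libraries only the NSC-CiPSC lines expressed it. The entry sits on the minus strand within Zfp280d, a gene on the plus strand, and processed pseudogenes can share reads with their parent genes, so its level is uncertain. Ece1, which activates endothelin, was at 63.6, 64.6 and 45.6 in NSC-CiPSC and 3.38 and 1.27 in IEC-CiPSC (4.21 ± 0.308 SE, adjusted p = 0.00166). Every other library had far more Ece1 than the IEC-CiPSC lines, with 32.9 in ESC, 173 in NSC and 326 in IEC. The next gene along the chromosome, the translation factor gene Eif4g3, was picked after its values were seen and rose too, with 11.4, 8.17 and 11.1 in NSC-CiPSC and 2.45 and 1.36 in IEC-CiPSC (1.96, adjusted p = 0.00653).

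Car4, a membrane-anchored carbonic anhydrase, was at 12.9, 8.83 and 7.67 FPKM in NSC-CiPSC and 0.359 and 0.447 in IEC-CiPSC, with 0.416 in ESC (2.91, adjusted p = 0.00213). Aim2, a sensor of cytosolic DNA, was at 25.8, 21.1 and 25.7 in NSC-CiPSC and 4.50 and 3.31 in IEC-CiPSC, with 27.1 in ESC (2.37, adjusted p = 0.00149). The transcription factor Foxp1 was at 27.2, 10.5 and 15.4 in NSC-CiPSC and 2.45 and 2.12 in IEC-CiPSC (2.41, adjusted p = 0.0129). Line 1 was the highest NSC-CiPSC line for Foxp1 and for a pair of neuronal genes. Ina, a neurofilament subunit, was at 22.4, 4.90 and 7.47 in NSC-CiPSC and 0.834 and 1.04 in IEC-CiPSC (2.44 ± 0.561 SE, adjusted p = 0.0404), and Crmp1, a regulator of axon growth, at 17.9, 7.61 and 7.44 against 0.842 and 1.55 (2.36, adjusted p = 0.0163). Strand is not stated for the libraries, and Aim2, Ina and Crmp1 overlap Cadm3, Nt5c2 and Evc, so their reads may be shared with those genes. The call of Ina ended without a filter on low values, without the trend or without NSC-CiPSC line 3.

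Retinoic acid drives germ cells into meiosis, and the target that carries out this step had the third largest rise. Stra8 was at 29.6, 108 and 82.1 FPKM in NSC-CiPSC and 6.33 and 4.03 in IEC-CiPSC, with 7.92 in ESC (3.42 ± 0.537 SE, limma adjusted p = 0.0137), and its call ended without NSC-CiPSC line 3. Rarg, a retinoic acid receptor, was at 71.5, 43.3 and 40.8 in NSC-CiPSC and 7.98 and 12.1 in IEC-CiPSC, with 78.2 in ESC (2.24, adjusted p = 0.00805). Crabp2, which carries retinoic acid to the nucleus, was at 9.56, 8.33 and 5.27 in NSC-CiPSC and 2.16 and 1.30 in IEC-CiPSC (1.66, adjusted p = 0.0162). Rxra, the partner receptor, fell, with 5.37, 4.75 and 4.66 in NSC-CiPSC and 12.5 and 11.3 in IEC-CiPSC (-1.12, adjusted p = 0.0076). In all, 3 of 13 tested genes of this pathway rose and 1 fell, and the median log2 difference was 0.53. The called share was 30.8%, against 5.46% of all genes. The enzymes that make retinoic acid did not rise, with Aldh1a2 at 1.79, 2.03 and 1.2 in NSC-CiPSC and 3.33 and 2.68 in IEC-CiPSC (adjusted p = 0.118).

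Other germline genes moved with Stra8. Dmrt1, a germ cell and testis transcription factor, was at 28.1, 38.1 and 31.0 FPKM in NSC-CiPSC and 3.69 and 3.37 in IEC-CiPSC, with 6.16 in ESC (2.87 ± 0.162 SE, adjusted p = 0.000573). Of 23 tested genes of the germline and piRNA list, which does not hold Dmrt1, 4 rose and 1 fell. The called share was 21.7%, against 5.46% of all genes. Higher without overlap were 15 (65.2%) and lower 4 (17.4%), against 30.3% and 21% of all genes. The median log2 difference was 0.70. Mov10l1, a helicase of piRNA production, was at 5.18, 7.87 and 5.98 in NSC-CiPSC and 1.47 and 1.35 in IEC-CiPSC (1.59, adjusted p = 0.00767). Ddx4, the germ cell helicase, was at 10.8, 12.9 and 12.1 in NSC-CiPSC and 4.64 and 3.14 in IEC-CiPSC (1.41, adjusted p = 0.00815). Tdrd12, a Tudor protein of the same pathway, went the other way, with 18.4, 28.2 and 21.7 in NSC-CiPSC and 69.2 and 66.5 in IEC-CiPSC (-1.55, adjusted p = 0.00635). The list had no call without either IEC-CiPSC line, 3 genes higher and 1 lower without NSC-CiPSC line 3, and 8 higher and 1 lower without line 1.

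Genes of the 2-cell-like state had the highest share of calls of any list. This state, in which a few cells of a culture switch on genes of the cleavage embryo, is marked by the Zscan4 cluster, whose proteins maintain telomeres. Of 11 tested genes 7 rose and 0 fell, and the median log2 difference was 1.36. The called share was 63.6%, against 5.46% of all genes. Zscan4f was at 43.8, 70.5 and 48.8 FPKM in NSC-CiPSC and 12.5 and 12.7 in IEC-CiPSC (2.00 ± 0.210 SE, limma adjusted p = 0.00466), and ESC lay above all 5 lines at 123. Zscan4b, Zscan4c, Zscan4d and Zscan4e rose with log2 differences from 1.48 to 1.80. These copies are nearly identical and adjacent on chromosome 7, so reads may be split among them and they are not independent. Usp17la and Usp17le, of a family of ubiquitin proteases, rose by 1.15 and 1.36 on the log2 scale. Tcstv3, another gene of this state, was at 1.63, 2.52 and 2.86 in NSC-CiPSC and 1.25 and 2.21 in IEC-CiPSC and was not called (adjusted p = 0.477). No gene of the list was called without IEC-CiPSC line 10 or without line 13.

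Imprinted genes, which are expressed from 1 parental allele, were called higher more often than lower. Of 38 tested members 5 rose and 1 fell, a called share of 15.8% against 5.46% of all genes. Higher without overlap were 16 (42.1%, against 30.3% of all genes). The 8 lower without overlap (21.1%) were near the 21% of all genes. The median log2 difference was 0.30. Nnat, a paternally expressed membrane protein, was at 21.5, 33.9 and 41.0 FPKM in NSC-CiPSC and 2.77 and 3.71 in IEC-CiPSC, with 7.28 in ESC (2.93 ± 0.282 SE, limma adjusted p = 0.00359). It lies within Blcap on the opposite strand, which was not called (15.3, 17.7 and 14.0 in NSC-CiPSC, 10.7 and 11.7 in IEC-CiPSC, adjusted p = 0.093). Mest, a paternally expressed hydrolase gene, was at 101, 47.1 and 66.6 in NSC-CiPSC and 14.2 and 21.2 in IEC-CiPSC (1.92, adjusted p = 0.0184), a call that ended without NSC-CiPSC line 3. The list had 1 call, Plagl1, without either IEC-CiPSC line.

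Of the other called members, 3 are maternally expressed genes of chromosome 7. Phlda2, which limits placental growth, was at 26.8, 35.5 and 36.7 FPKM in NSC-CiPSC and 6.51 and 6.35 in IEC-CiPSC (2.18, adjusted p = 0.00175). Cdkn1c, a cell cycle inhibitor, was at 3.38, 3.14 and 2.97 in NSC-CiPSC and 0.886 and 0.332 in IEC-CiPSC (1.39, adjusted p = 0.0122), a call that ended without NSC-CiPSC line 3. H19, a noncoding RNA, was at 40.8, 56.9 and 40.4 in NSC-CiPSC and 16.0 and 15.2 in IEC-CiPSC (1.48, adjusted p = 0.00633). Igf2, which shares enhancers with H19 and is expressed from the other allele, was at 6.84, 4.51 and 3.05 in NSC-CiPSC and 3.71 and 3.09 in IEC-CiPSC (adjusted p = 0.459). Plagl1, a paternally expressed zinc finger gene of chromosome 10, was the member that fell, with 9.46, 9.15 and 11.3 in NSC-CiPSC, 52.6 and 52.0 in IEC-CiPSC and 20.4 in ESC (-2.28 ± 0.131 SE, adjusted p = 0.000604). Meg3, a maternally expressed RNA whose loss marks poor mouse iPSC, was at 343, 83.7 and 173 in NSC-CiPSC and 55.5 and 61.5 in IEC-CiPSC. Its lines did not overlap between groups, but line 1 held a level far above the others and the gene was not called (adjusted p = 0.117).

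Imprints are kept by DNA methylation, and the list of that machinery had 1 call among 18 tested genes (5.56%), a share near the 5.46% of all genes. Dnmt3a, a de novo methyltransferase, was at 89.5, 43.6 and 48.7 FPKM in NSC-CiPSC and 13.6 and 14.9 in IEC-CiPSC, with 42.8 in ESC (1.94 ± 0.306 SE, limma adjusted p = 0.0139). Dnmt3b, its homologue, was at 106, 51.1 and 53.4 in NSC-CiPSC and 25.3 and 31.5 in IEC-CiPSC and missed the threshold (adjusted p = 0.0657). The maintenance enzyme Dnmt1 was at 75.9, 73.4 and 80.1 in NSC-CiPSC and 65.2 and 63.5 in IEC-CiPSC (adjusted p = 0.134). Among Polycomb subunits 1 of 29 rose (3.45%, below that background), Aebp2, an accessory factor of PRC2, with 64.6, 58.9 and 61.4 in NSC-CiPSC and 25.9 and 27.8 in IEC-CiPSC (1.17, adjusted p = 0.00261).

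Mesenchymal genes gave the highest share of falls. Of 21 tested genes of fibroblasts and mesenchyme 11 fell and 0 rose, a called share of 52.4% against 5.46% of all genes. Lower without overlap were 15 (71.4%, against 21% of all genes) and higher 0. The median log2 difference was -1.06. Col1a1, a fibrillar collagen chain, was at 3.47, 3.04 and 1.81 FPKM in NSC-CiPSC and 16.7 and 17.0 in IEC-CiPSC, with 1.36 in ESC and 1873 in IEC (-2.27 ± 0.229 SE, limma adjusted p = 0.0042). Its partner chain Col1a2 was at 1.21, 0.883 and 0.907 in NSC-CiPSC and 7.21 and 9.74 in IEC-CiPSC (-2.23, adjusted p = 0.00271). S100a4, a calcium-binding protein of motile cells, was at 0.791, 0 and 0.331 in NSC-CiPSC and 8.80 and 13.2 in IEC-CiPSC (-3.14, adjusted p = 0.00364), and Fbln2, an extracellular matrix protein, at 1.08, 2.12 and 2.61 against 12.0 and 11.9 (-2.18, adjusted p = 0.00647).

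The other members that fell were Postn, Col5a2, Col5a1, Col3a1, Thy1, Sparc and Prrx1, all known from stromal cells. The levels were low beside those of true stroma, as every one of the 11 but Thy1 and Prrx1 was highest in IEC. The 8 fibroblast markers, of which Col1a1, Col1a2, Col3a1, Thy1 and Postn are also members of the list, summed to 24.1, 42.3 and 32.9 FPKM in NSC-CiPSC and 71.1 and 67.9 in IEC-CiPSC. The defining stromal proteoglycan Lum was at 0 in all NSC-CiPSC lines and at 0.1 and 0.05 in IEC-CiPSC, and Dcn was at 0.577, 0.135 and 0 in NSC-CiPSC and 0.650 and 0.501 in IEC-CiPSC. A few stromal cells in a line and a low level in many cells cannot be told apart in bulk RNA, and their part in the result was not tested. The count was 1 without IEC-CiPSC line 10, 0 without line 13, 8 without NSC-CiPSC line 3 and 11 without line 1.

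**Figure D3:**
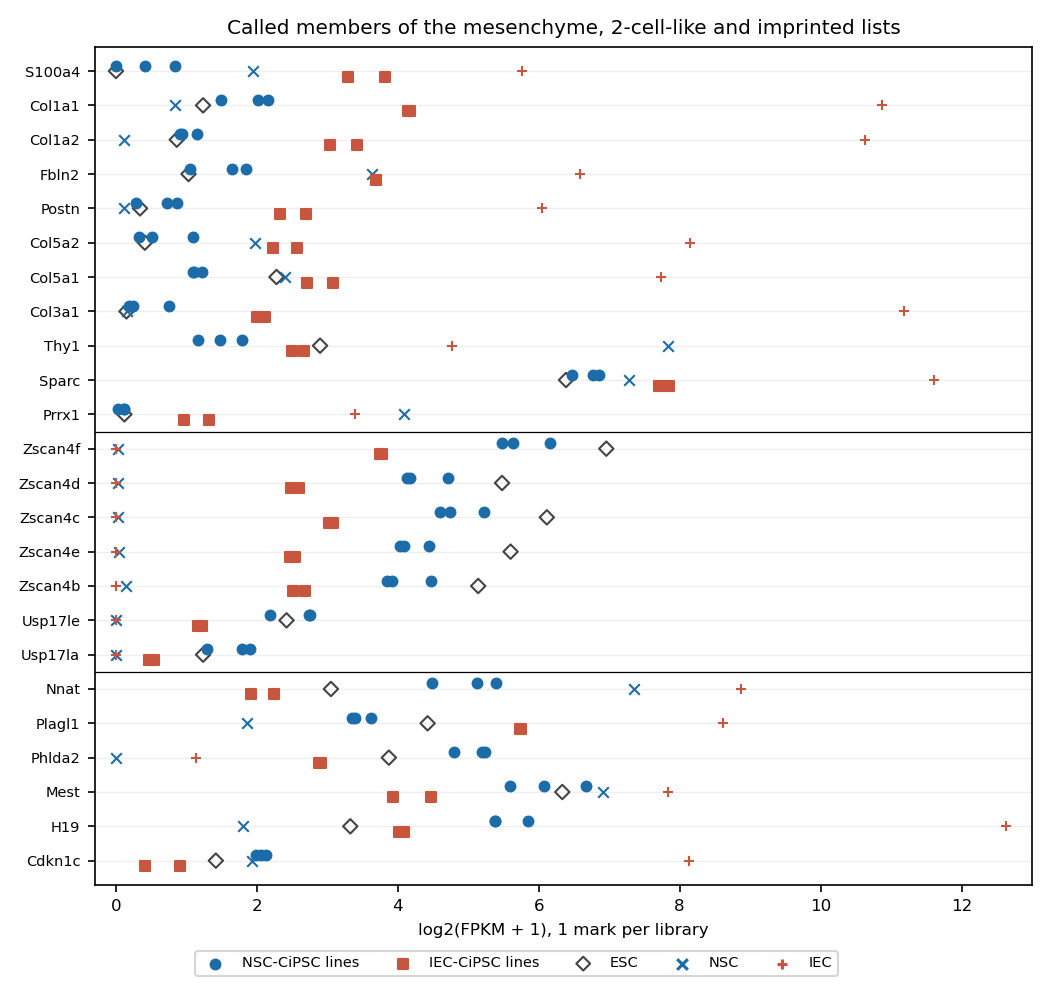
Level of the called members of the fibroblast and mesenchyme list (top), the 2-cell-like list (middle) and the imprinted list (bottom) in every library, as log2(FPKM + 1), with 1 mark per library. All 11 mesenchymal genes are lower in the NSC-CiPSC lines than in the IEC-CiPSC lines, all 7 genes of the 2-cell-like state are higher, and of 6 imprinted genes only Plagl1 is lower.

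Keratins of simple epithelia were higher in the lines of neural origin. Krt8 and Krt18, partner keratins of the first embryonic epithelia and neighbours on chromosome 15, rose together. Krt8 was at 50.2, 28.0 and 23 FPKM in NSC-CiPSC and 4.69 and 4.09 in IEC-CiPSC, with 10.0 in ESC (2.61 ± 0.321 SE, limma adjusted p = 0.00703). Krt18 was at 52.1, 29.6 and 24.1 in NSC-CiPSC and 6.14 and 4.0 in IEC-CiPSC, with 5.16 in ESC (2.53 ± 0.342 SE, adjusted p = 0.00923). Both keratins were highest in line 1 among the NSC-CiPSC lines. Of 23 tested genes of simple keratins and claudins 4 rose and 2 fell, a called share of 26.1% against 5.46% of all genes. Esrp1, an epithelial splicing factor, was at 6.35, 4.09 and 3.97 in NSC-CiPSC and 0.754 and 0.678 in IEC-CiPSC (1.73, adjusted p = 0.00825). Cldn3, a tight junction protein, fell, with 1.10, 3.36 and 2.61 in NSC-CiPSC and 7.91 and 6.92 in IEC-CiPSC (-1.39, adjusted p = 0.0426). Epcam, the common epithelial marker, was at 60.8, 68.9 and 64.3 in NSC-CiPSC and 64.2 and 63.7 in IEC-CiPSC (adjusted p = 0.934). In the trophoblast list the keratins were the 2 genes that rose of 9 tested, while Gata2 and Gata3, regulators of that lineage, fell. The called share of that list was 44.4%, against 5.46% of all genes. Gata2 was at 1.47, 1.52 and 2.06 in NSC-CiPSC and 7.78 and 6.11 in IEC-CiPSC (-1.57, adjusted p = 0.00689).

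Among the lists of neural, glial and intestinal genes, calls were found mainly among neuronal genes. None of 12 neural progenitor genes was called, and 6 (50%) were higher without overlap and 2 (16.7%) lower, against 30.3% and 21% of all genes. None of 9 intestinal genes was called. Over all 12085 genes limma gave 3579 with an unadjusted p under 0.05. Olig2, an oligodendrocyte lineage factor, was at 11.1, 3.65 and 5.32 FPKM in NSC-CiPSC and 7.48 and 8.66 in IEC-CiPSC, with 0.0436 in ESC (adjusted p = 0.581). Among 14 neuronal genes 2 rose (Ina and Crmp1) and 2 fell (Nefm and Stmn3), a called share of 28.6% against 5.46% of all genes, and none was called without either IEC-CiPSC line. Slc1a3, a glutamate transporter of glia, rose, with 5.82, 6.87 and 5.55 in NSC-CiPSC and 1.96 and 1.80 in IEC-CiPSC (1.29, adjusted p = 0.00745), and was at 6.08 in ESC. It was the called gene of 5 tested in the glia list (20%, against 5.46% of all genes).

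Pluripotency factors were present in both groups. Of 27 tested factors 1 rose and 2 fell, a called share of 11.1% against 5.46% of all genes. Lower without overlap were 12 (44.4%) and higher 8 (29.6%), against 21% and 30.3% of all genes. The median log2 difference was -0.36. Tcl1, a kinase co-activator of naive cells, was at 12.6, 33.8 and 22.2 FPKM in NSC-CiPSC, 106 and 105 in IEC-CiPSC and 60.4 in ESC (-2.26 ± 0.370 SE, limma adjusted p = 0.0154). Tfcp2l1, a naive transcription factor downstream of LIF, was at 22, 36.5 and 35.3 in NSC-CiPSC, 99.5 and 102 in IEC-CiPSC and 59.5 in ESC (-1.69, adjusted p = 0.00904). ESC thus lay between the groups for both. Sall4, a zinc finger factor, rose, with 84.2, 58.6 and 57.7 in NSC-CiPSC and 32.3 and 31.9 in IEC-CiPSC (1.01, adjusted p = 0.0205). Its call ended under quantile normalization, under median scaling, without NSC-CiPSC line 1 and without line 3. Sox2 passed the adjusted p but not the fold limit, with 143, 138 and 143 in NSC-CiPSC and 238 and 227 in IEC-CiPSC (-0.71, adjusted p = 0.00603). Pou5f1 was at 1001, 935 and 848 in NSC-CiPSC and 1173 and 1206 in IEC-CiPSC (adjusted p = 0.0664).

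Among signalling genes of the embryo, Lefty2, a secreted Nodal antagonist, was at 29.6, 38.2 and 49.7 FPKM in NSC-CiPSC and 97.8 and 102 in IEC-CiPSC, against 5.40 in ESC (-1.36, adjusted p = 0.0135). Its neighbour and homologue Lefty1 was at 55.3, 37.9 and 59.8 in NSC-CiPSC and 30.3 and 34.0 in IEC-CiPSC, against 2.70 in ESC, and was not called (adjusted p = 0.103). Inhba, an activin subunit, also fell, and these were the 2 calls among 19 genes of the Nodal pathway (10.5%, against 5.46% of all genes). Otx2, a factor of primed epiblast and forebrain, was at 0.542, 0.580 and 0.533 in NSC-CiPSC, 5.55 and 3.89 in IEC-CiPSC and 10.7 in ESC (-1.87, adjusted p = 0.00462). Called shares near that background were found for 1 of 20 FGF and ERK genes (Dusp5, higher), 1 of 16 BMP genes (Id2, lower) and 1 of 16 Notch genes (Jag2, higher), and 0 of 27 Wnt genes were called.

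Glycolysis and hypoxia genes were mostly lower by less than 2-fold. Of 36 tested 21 (58.3%) were lower without overlap, against 21% of all genes, and 2 were higher. By the test 1 rose and 2 fell (8.33%, against 5.46% of all genes). The median log2 difference was -0.62, and it depended on the NSC-CiPSC lines used. It was -0.28 without NSC-CiPSC line 1, -0.96 without line 2 and -0.76 without line 3. Ldha, which makes lactate, was at 657, 966 and 796 FPKM in NSC-CiPSC and 1686 and 1516 in IEC-CiPSC (log2 difference -1.0, adjusted p = 0.0169), a call that ended without NSC-CiPSC line 1 and without line 3. None of 37 nuclear respiratory chain genes, 26 S phase and mitosis genes, 25 cholesterol and fatty acid synthesis genes or 21 chromatin genes and compound targets was called. Over the 39 lists 39 genes rose and 43 fell of 669 tested, against 2.42% and 3.05% of all 12085 genes.

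**Figure D4:**
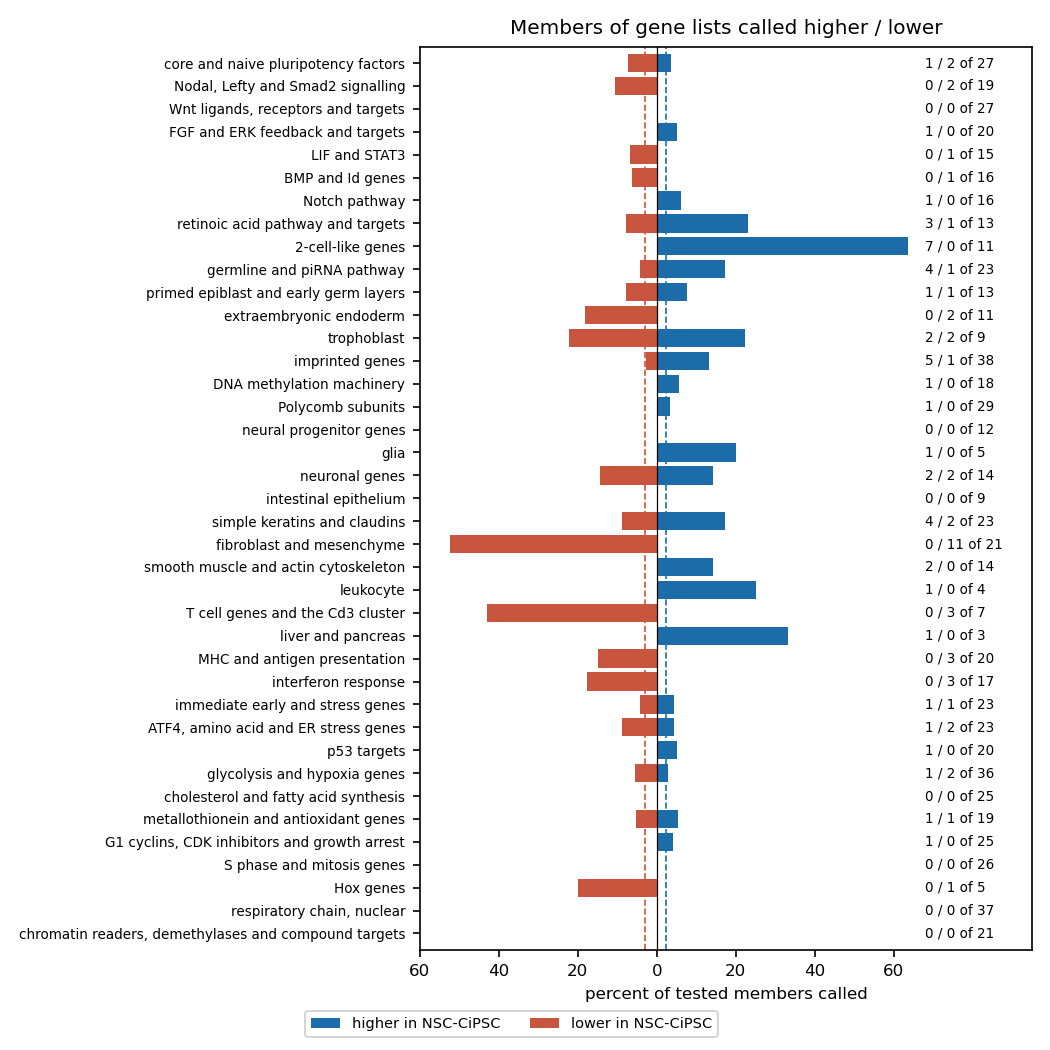
Share of the tested members of each of 39 gene lists called higher (bars to the right) or lower (bars to the left) in NSC-CiPSC, in percent, with the counts of higher and lower calls and tested members at the right. Dashed lines mark 2.42% and 3.05%, the shares of all 12085 genes called higher and lower, and the longest bars are the 7 of 11 genes of the 2-cell-like list and the 11 of 21 of the fibroblast and mesenchyme list.

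ESC, NSC and IEC were not used to choose the genes. Of the 292 genes that rose, ESC lay within 2-fold of the NSC-CiPSC mean only for 87 (29.8%), of the IEC-CiPSC mean only for 75 (25.7%), of both for 111 and of neither for 19. Of the 368 genes that fell, ESC lay within 2-fold of the NSC-CiPSC mean only for 159 (43.2%), of the IEC-CiPSC mean only for 93 (25.3%), of both for 95 and of neither for 21. Over all 12085 genes the shares were 5.81% for NSC-CiPSC only, 3.71% for IEC-CiPSC only, 87.6% for both and 2.89% for neither. Neither group of lines was therefore the one that departed from ESC throughout. Dmrt1, Stra8 and Car4 were higher in NSC-CiPSC than in ESC and IEC-CiPSC alike, while Cd3d, Cd3g, H2-Eb1 and Msln were higher in IEC-CiPSC than in ESC and NSC-CiPSC alike. Aim2 and Rarg had ESC at the NSC-CiPSC level, and Xaf1 and Oas1a had ESC near the IEC-CiPSC level.

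The donor libraries gave an uneven picture. Of the genes that fell in NSC-CiPSC, 142 (38.6%) were at least 2-fold higher in the IEC than in the NSC library and 48 (13.0%) were lower by as much. Of the genes that rose, 90 (30.8%) were higher in IEC and 41 (14.0%) in NSC. Over all 12085 genes the shares were 15.3% and 15.4%. Called genes of either direction were thus high in the IEC library more often than in the NSC library, and the called rises did not lean towards genes of the NSC library. NSC and IEC are 1 library each, so these counts carry no test.

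Called genes lay on every autosome, and the medians of the autosomes lay close together. Called shares ran from 3.02% on chromosome 18 to 7.14% on chromosome 13. Chromosome medians of the log2 difference lay between -0.01 on chromosome 18 and 0.14 on chromosome 14. Chromosome 8 had 17 genes higher and 4 lower of 606, a called share of 3.47% against 5.46% of all genes. One line stood apart on 1 chromosome: over genes with FPKM 5 or more, chromosome 6 had a median of 0.20 in NSC-CiPSC line 3, against 0.02 and 0.08 in lines 1 and 2, each set against the IEC-CiPSC mean. Stra8, Foxp1, Mest and Aebp2, named above, lie on that chromosome, and the calls of Stra8, Foxp1 and Mest ended without line 3. Leaving out line 3 ended 25 of the 84 calls named by rule, on other chromosomes too. Line 3 was not the highest NSC-CiPSC line for Stra8, Foxp1 or Mest. The part of the chromosome 6 shift in these genes was not tested.

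**Figure D5:**
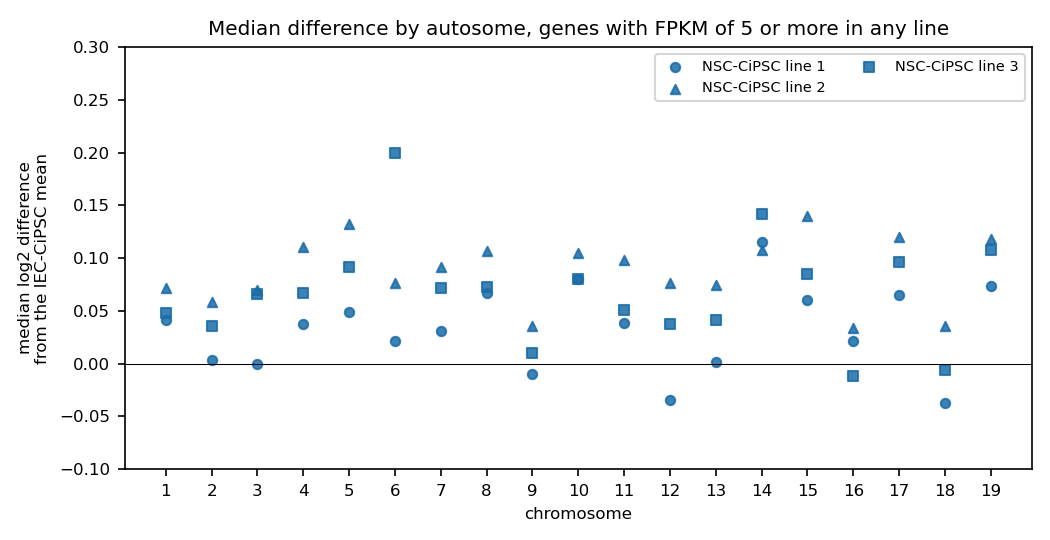
Median over genes of each NSC-CiPSC line's difference from the mean of the IEC-CiPSC lines, in log2(FPKM + 1), for chromosomes 1 to 19 and genes with FPKM of 5 or more in any line. Line 3 lies at 0.20 on chromosome 6, above every other point, while lines 1 and 2 lie at 0.02 and 0.08 there.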

How the data were processed

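Levels were FPKM values as deposited by the authors, with a status and interval bounds for each entry. The submitters' processing notes name TopHat, Cufflinks and the mm10 build. Tool versions, strandedness and the annotation release are not given in the sources used here. RNA was isolated with RNeasy Plus Mini and libraries with NEBNext Ultra, per the labels' protocols. The files give no counts, so depth is seen only through the interval widths. Entries not marked OK were left out, 27 symbols that a spreadsheet had turned into dates were restored from their identifiers, and GENCODE M21 gave biotypes. Exact zeros are given as listed and can be failed estimates.

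Genes with FPKM of at least 1 in any of the 5 lines, 14152 on all chromosomes, were fitted on log2(FPKM + 1) by limma 3.58.1 (R 4.3.3). The variances were moderated by empirical Bayes along a trend with level (3 residual and 3.01 prior degrees of freedom). Adjustment by Benjamini-Hochberg ran over all 14152 genes. Tested on simulated data of this comparison with 14152 genes, the fit recovered 95% of 100 genes changed by 1.5 and 100% of 100 genes changed by 3 on the log2 scale, with 5 false calls. That assumes lines of one origin to be independent. The changed genes were drawn from those with a mean log2(FPKM + 1) above that of FPKM 5. Spread came from the fitted model, and all other genes had no difference. The simulation therefore does not cover lower genes or a line that stands apart.

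Members, tests and the 39 gene lists (905 genes, of which 58 stood in more than 1 list and 16 had no entry) were chosen with earlier results of these data known, so list counts are descriptions and no list was tested as a set. The rule for names took the 12 called genes that rose most and the 12 that fell most, if the group with more of the gene averaged FPKM 5 or above, without symbols holding Rik, LOC, AK or BC and digits, small RNAs and selenoprotein genes, whose deposited FPKM is inflated, and up to 4 called members per list. Members named beyond these were chosen after their values were seen. Promoter windows are RefSeq entries, found for 19 of the 24 genes. Alternatives changed the pseudocount, filter, scaling, fit, variance model, biotype, fold limit and lines used. Summaries used pandas 2.3.3 and NumPy 2.4.6 under Python 3.11.15, and plots matplotlib 3.10.9.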

Additional observations from a re-analysis of the deposited data

How the results depend on the processing

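All 84 genes named by rule kept their direction under every alternative that fitted them. Calls numbered 804 with a pseudocount of 0.1, 473 with an FPKM minimum of 5, 527 with no filter, 678 after quantile normalization, 669 after median scaling, 637 without the trend and 648 for coding genes, against 660. Without a fold limit there were 1419. Genes whose deposited interval bounds stood apart numbered 1593, against 6206 by the FPKM values alone. Leaving out 1 line at a time gave 24 to 758 calls, 10 to 367 higher, 14 to 398 lower, between 4 and 101 among the listed genes (82 with all lines) and 6839 to 7959 genes without overlap. Without NSC-CiPSC line 3 there were 337 calls (142 higher, 195 lower, 51 listed), without IEC-CiPSC line 10 there were 28 (10 higher, 18 lower, 5 listed), and without IEC-CiPSC line 13 there were 24 (10 higher, 14 lower, 4 listed). In the last cases 1 IEC-CiPSC line is left, assumed to vary like the NSC-CiPSC lines. Of the 24 genes with the largest differences, Stra8, Nnat, Car4, Krt8, Krt18, Ina, Foxp1, Crmp1, Fam25c, Ubd, AA467197 and Hopx lost their call without either IEC-CiPSC line, and Stra8, Ina and Foxp1 without NSC-CiPSC line 3. The share of calls for which ESC was nearer to NSC-CiPSC was 57.7%, near the 54.9% of all genes, and ran from 53% to 79.2% when 1 line was left out. The spread between chromosome medians was 0.15, and 0.13 to 0.17 when 1 line was left out. No paired analysis was possible because NSC-CiPSC lines 1, 2 and 3 and IEC-CiPSC lines 10 and 13 share no replicate number.

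The deposited intervals limit low genes most, and 209 of the 660 called genes had a mean under FPKM 5 in both groups.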

Other observations

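Mir1949, a small RNA entry of chromosome 18 that the naming rule leaves out, was listed at 0 in all 3 NSC-CiPSC lines and at 220 and 243 FPKM in IEC-CiPSC lines 10 and 13, and at 0 in ESC, NSC and IEC. BC002163, a processed pseudogene also left out by the rule, was at 52.2, 70.3 and 59.2 FPKM in NSC-CiPSC and 7.37 and 9.86 in IEC-CiPSC, with 99.9 in ESC (log2 difference 2.68, limma adjusted p = 0.00111).

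Called genes lay near each other in some places, picked after their values were seen. Within 100 kb of the 24 genes with the largest differences there were 74 tested genes besides the 24 themselves, of which 3 rose and 12 fell, against 2.42% and 3.05% of all genes. Besides the CD3, class II, Pramel and Crxos1 neighbourhoods, Hopx had the protease inhibitor gene Spink2 beside it, at 0.232, 0.280 and 0.248 FPKM in NSC-CiPSC and 2.00 and 1.57 in IEC-CiPSC (adjusted p = 0.0143). Msln had its paralogue Mslnl beside it, at 0.359, 0.0442 and 0.353 in NSC-CiPSC and 1.97 and 1.73 in IEC-CiPSC (adjusted p = 0.0186), and 2 of the 15 genes around Msln fell. Of 284 windows of 5 Mb with at least 15 genes, 71 held no called gene.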
